A study of Mus musculus with 96 samples.

Results

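The genes described here are the histone genes of the expression table. They were taken by symbol: H1f, H2ac, H2bc, H3c, H4c, H2az or H3f followed by a number and at most 1 letter, together with H2ax. The rule found 28 of 22709 genes. Of these, 19 lie in the replication-dependent class (3 H1, 2 H2A, 6 H2B, 2 H3 and 6 H4 genes), and 9 are replacement variants (H1f0, H1f10, H2ax, H2az1, H2az2, H3f3a, H3f3b, H3f3c and H3f4).

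Messenger RNA was sequenced from mouse hippocampus and prefrontal cortex in 96 libraries, 48 per tissue. In each tissue, 8 groups combined maternal immune activation (MIA) or saline, the CSF1R inhibitor PLX5622 (PLX) or control, and female or male sex. There were 6 libraries per group, but 7 of MIA control females and 5 of MIA control males. CSF1R is the receptor on which microglia depend for survival, and its inhibition is used to remove or renew them. The labels give no strain, age, litter, immune-activating agent, dose or time, nor what the controls received in place of the inhibitor. They name each library as a separate sample without stating separate animals, so p-values measure the spread between these libraries, and animals of 1 litter would not be independent.

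Histones are the proteins around which nuclear DNA is wound: H2A, H2B, H3 and H4 form the core particle and H1 binds the linker DNA. Replication-dependent histone genes sit in clusters without introns, are transcribed mainly in S phase, and give mRNAs that normally end in a conserved stem-loop in place of a poly(A) tail. Replacement variants are made throughout the cell cycle as polyadenylated mRNAs and are the main supply of new histones in neurons, which no longer divide. The library kit selects polyadenylated RNA, so signal from a replication-dependent gene here comes mainly from transcripts that carry a poly(A) tail.

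The stem-loop is a sequence feature of most of the replication-dependent genes, and it is shown for 7 members that the results below turn on. The sites were read from GENCODE M21 transcripts (genome build GRCm38, which is not the build GRCm39 of the deposited values), all in the 3′ untranslated part of the mRNA, 5′ to 3′. Capitals mark the 16 bases of the stem-loop, and the lower-case letters are the 5 bases on either side.
H1f4: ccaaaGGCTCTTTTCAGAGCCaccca
H1f2: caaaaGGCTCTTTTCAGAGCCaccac
H2bc6: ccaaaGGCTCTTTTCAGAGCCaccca
H3c15: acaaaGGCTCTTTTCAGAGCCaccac
H4c14: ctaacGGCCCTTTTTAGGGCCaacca
H4c9: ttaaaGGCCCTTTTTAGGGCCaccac
H2ax: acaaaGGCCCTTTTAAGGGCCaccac
H1f4, H1f2, H2bc6 and H3c15 share the same 16 letters, while H4c14 and H4c9 share another form and H2ax, a variant that is also made in S phase, has its own. The histone stem-loop motif was searched on the transcript strand, with the first 6 bases the reverse complement of the last 6. It matched transcripts of 15 of the 19 replication-dependent genes and of 1 of the 9 replacement variants, H2ax, against 49 of 21877 protein-coding gene symbols (0.224%). The replication-dependent genes without a match were H2bc4, H2bc21, H2bc15 and H4c12, and the annotated transcripts of the last 2 hold only coding sequence. In 15 of the 16 members with the site, the annotated transcript runs on for 100 or more bases after it, and in 11 of the 16 a poly(A) signal (AATAAA or ATTAAA) follows.

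Upstream sequence is shown for 4 members of contrasting behaviour in the comparisons: the linker histone gene H1f4, the H2B gene H2bc6, the H4 gene H4c12 and the replacement linker histone gene H1f0. Each is the 250 bases before the transcription start in RefSeq (GRCm38.p6), 5′ to 3′ on the strand of the gene. Capitals mark a match to one of 4 motifs, searched on both strands, and no matches overlapped. The TATA box was searched by the letters TATAAA. The octamer of H2B promoters was searched as ATTTGCAT and the H1 box, an element of linker histone promoters, by its letters AAACACA. The CCAAT box is spelled by its name.
H1f4 (chr13:23622559-23622808, minus strand): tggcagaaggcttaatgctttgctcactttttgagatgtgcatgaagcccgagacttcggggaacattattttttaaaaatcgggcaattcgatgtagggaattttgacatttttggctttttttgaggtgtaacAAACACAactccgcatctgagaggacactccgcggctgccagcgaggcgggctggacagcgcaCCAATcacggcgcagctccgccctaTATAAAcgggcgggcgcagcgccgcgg
H2bc6 (chr13:23585971-23586220, minus strand): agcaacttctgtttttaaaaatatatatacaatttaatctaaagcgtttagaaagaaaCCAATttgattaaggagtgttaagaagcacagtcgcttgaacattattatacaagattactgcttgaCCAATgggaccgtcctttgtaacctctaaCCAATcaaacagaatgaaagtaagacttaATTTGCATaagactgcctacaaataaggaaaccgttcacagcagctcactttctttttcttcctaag
H4c12 (chr13:21750554-21750803, minus strand): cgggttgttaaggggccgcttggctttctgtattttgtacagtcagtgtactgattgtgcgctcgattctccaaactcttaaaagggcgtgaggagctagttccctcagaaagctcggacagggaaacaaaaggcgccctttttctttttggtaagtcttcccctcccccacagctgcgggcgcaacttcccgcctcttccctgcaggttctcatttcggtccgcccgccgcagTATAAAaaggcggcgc
H1f0 (chr15:79027962-79028211, plus strand): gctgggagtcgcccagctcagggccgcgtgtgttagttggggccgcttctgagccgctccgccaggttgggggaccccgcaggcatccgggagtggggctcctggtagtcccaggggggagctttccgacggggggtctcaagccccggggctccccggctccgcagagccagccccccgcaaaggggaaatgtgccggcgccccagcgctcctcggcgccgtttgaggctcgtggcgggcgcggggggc
H1f4 holds an H1 box, a CCAAT box and a TATA box, H2bc6 holds 3 CCAAT boxes and the octamer, H4c12 holds a TATA box, and H1f0 holds none of these letters. A second annotated start of H2bc6 lies close to H1f4 on the same strand. Promoter windows of 300 bases, with 50 bases after the start, were found for 24 of the 28 members (16 replication-dependent, 8 replacement). TATAAA was in 10 of 16 and 2 of 8, against 13.6% of all 32851 windows. CCAAT was in 12 of 16 and 5 of 8 (37.4% of all windows), the octamer in 4 of 16 and 1 of 8 (1.74%), and the H1 box in 3 of 16 and 1 of 8 (7.18%).

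In signal, the replacement variants stood far above the replication-dependent genes. Signal means read counts divided by 1 factor per library, as deposited. The 2 genes of histone H3.3 led: H3f3b ran from 2505 to 4492 in hippocampus (median 3857) and in prefrontal cortex from 2552 to 4803 (median 3645). H3f3a had medians of 1379 and 1201. H1f0, the linker histone of non-dividing cells, had medians of 2079 in hippocampus and 1935 in prefrontal cortex. The genes of the transcription-linked variant H2A.Z followed, with medians of 552 and 553 for H2az2 and of 176 and 181 for H2az1. H2ax, whose protein marks DNA breaks when phosphorylated, had medians of 327.5 and 366. H1f10 (238 and 239) and H3f3c (282 and 256) were at a similar level, and H3f4 stayed under 11 in every library.

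Of the replication-dependent genes, 4 were well measured in both tissues. H2bc4 had a median signal of 445 in hippocampus and 317 in prefrontal cortex, H1f2 313 and 255, H2bc21 265 and 189.7, and H2bc6 146 and 89.3. H2bc4 and H2bc21 are also 2 of the 4 genes of this class whose annotated transcripts lack the stem-loop. H4c14, H3c15, H4c9, H2ac6 and H1f4 had medians between 26.5 and 44.0 in hippocampus. The other 10 had medians under 20 there, and 6 of those were at 0 in at least 1 prefrontal library. Summed over the class, the 19 replication-dependent genes gave a signal of 1009 to 2182 per hippocampal library (median 1457.5) against 6993 to 10716 (median 8908.5) for the 9 replacement variants. Per kilobase of GENCODE transcript the order was alike at the top: in hippocampus H3f3b had a median of 1534, H1f0 1012 and H2bc4 385, while H1f4 had 13.8 and H1f3 0.721.

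**Figure D1:**
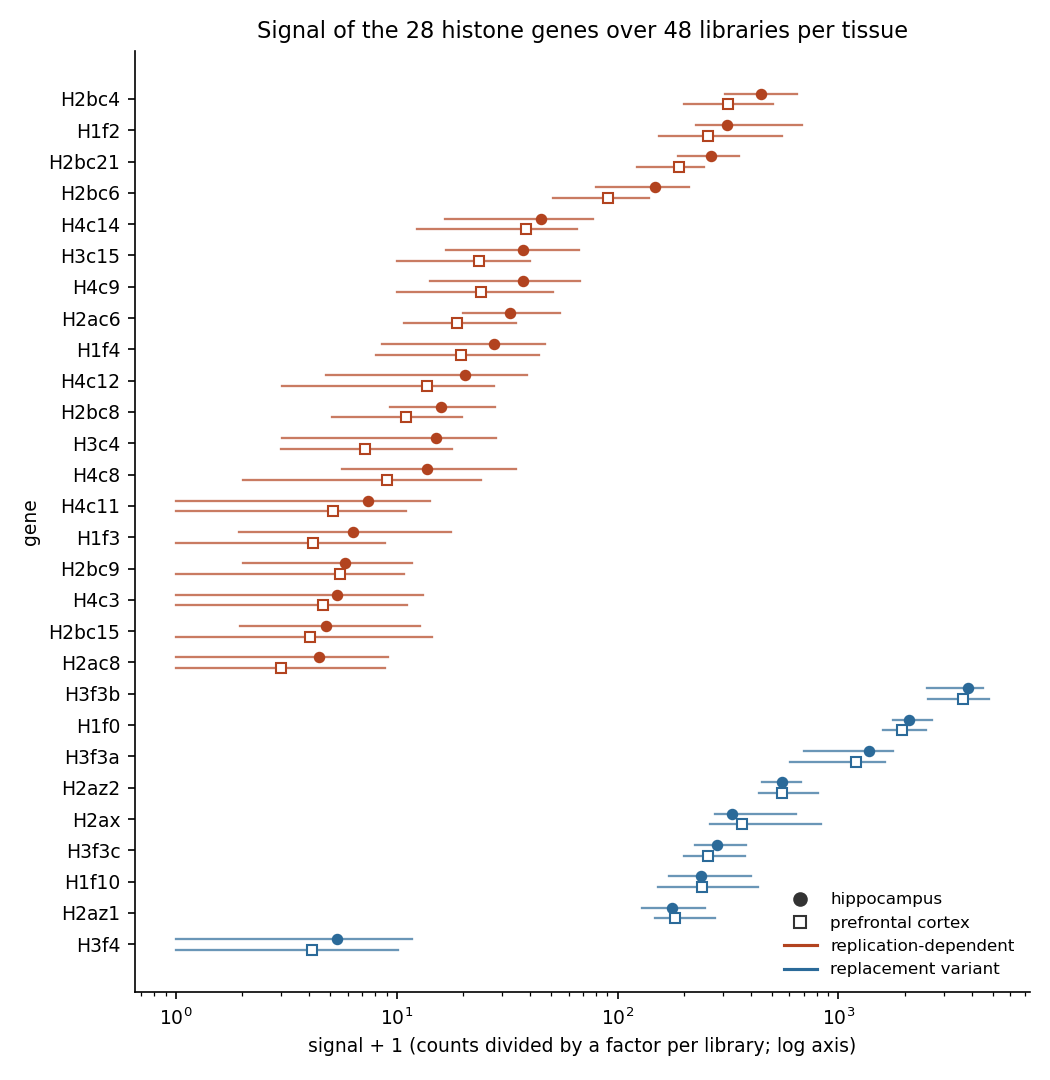
Signal plus 1 on a log axis for each of the 28 histone genes; points are medians and lines run from the lowest to the highest of 48 libraries, with filled circles for hippocampus and open squares for prefrontal cortex. H3f3b, at medians of 3857 and 3645, lies at the top of the replacement variants, and H2bc4, at 445 and 317, at the top of the replication-dependent genes.

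Near-identical sequence makes some of these values uncertain, since the counter and its rule for reads that match several genes are not given. In H4c12, 64.3% of the 100-base words of the annotated transcript occur in another gene, in H3c15 61.6%, in H3f3c 56.7% (mainly H3f3a, of which GENCODE M21 calls H3f3c a processed pseudogene), in H2bc15 52.1%, in H2bc8 44.9%, in H4c8 38.5%, in H2ac8 30.7%, in H2az1 29.7% and in H2bc4, the replication-dependent gene with the highest signal, 25.4%. H1f4 shares 24.7%, most of it with H2bc6, whose annotation overlaps its own. H4c14, H2bc21, H1f0, H1f10 and H2az2 share none.

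Recovered reads ran from 22.2 to 26.7 per hippocampal library and from 22.8 to 25.9 per prefrontal library, in units of 1e6 reads, and the histone genes took 0.0313% to 0.0525% of them. Libraries fell into 2 sets by the share of reads in ribosomal protein and oxidative phosphorylation genes, found by 2-means clustering within each tissue. This share was 1.27% to 1.45% in 14 hippocampal libraries (12 control, 2 PLX) and 0.897% to 1.11% in the other 34. In prefrontal cortex it was 1.18% to 1.41% in 16 libraries (14 control, 2 PLX) and 0.861% to 1.07% in the other 32. These 14 and 16 are called high-share libraries below, and since most are controls, the PLX results are given with and without them. The tissue labels were checked against markers: the summed signal of 8 hippocampal neuron markers was 24330 to 43040 in hippocampal and 7161 to 13117 in prefrontal libraries.

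The first comparison asked whether the histone genes differ between the tissues, in 1 fit of all 16 groups. Replication-dependent genes were higher in hippocampus, while differences of the replacement variants went both ways. At an adjusted p under 0.05 (limma, Benjamini-Hochberg over all genes tested), 19 of 23 tested members were called, beside 65.0% of all 20620 genes. Of the 15 replication-dependent genes among them, H1f3, H4c11 and H3c4 passed the filter on low signal through hippocampus: in prefrontal cortex a signal of 10 was reached in 0, 1 and 4 of 48 libraries, fewer than the 5 the filter asks for. Their differences were favoured by that filter. They are among the 19 called, and are left out only of the counts and medians by class that follow. Called higher in hippocampus were 12 of the 12 replication-dependent genes that passed the filter in each tissue alone and 2 of 8 replacement variants, beside 31.8% of all genes, and 2 variants were called lower, beside 33.3%. The median log2 difference was 0.52 over the 12 and 0.0009 over the 8, beside 0.0022 over all genes. All differences are on the log2(signal + 1) scale, which understates changes of genes with low signal. The deposited scaling was made within each tissue, so prefrontal values were multiplied by 1.01, the median ratio between tissues.

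H2bc6, which encodes a core histone H2B, ran from 79.1 to 209.9 in hippocampus (median 146) and from 49.8 to 138 in prefrontal cortex (median 89.3). Its ranges overlapped, but the hippocampal value was the higher one in all 48 pairs of libraries with the same label. The difference was 0.73 ± 0.059 (log2, SE; adjusted p = 9.14e-20). The same order held in 47 of 48 labels for the H2B gene H2bc21 (0.44 ± 0.038, adjusted p = 1.62e-18). For the H3 gene H3c4, tested only through its hippocampal values, it held in 46 of 48 (0.95 ± 0.11, adjusted p = 5.95e-12). H2ac6, an H2A gene, differed by 0.74 ± 0.081 and the H4 genes H4c9 and H4c8 by 0.62 ± 0.091 and 0.61 ± 0.14. H2bc4, the replication-dependent gene with the highest signal, differed by 0.46 ± 0.055. The linker genes H1f4 and H1f2 differed by 0.43 ± 0.092 and 0.30 ± 0.053. H1f3, tested only through its hippocampal values, gave 0.61 ± 0.17. The smallest difference of the class was that of H4c14 at 0.25 ± 0.11 (adjusted p = 0.045), which lost its call when any 1 of 23 of the 48 labels was left out, with an adjusted p of at most 0.068. H2az1 was not called by edgeR (adjusted p = 0.081) or DESeq2 (adjusted p = 0.076), which both called H1f0.

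Among the replacement variants H3f3a (0.17 ± 0.050, adjusted p = 0.0017) and H3f3c (0.15 ± 0.041, adjusted p = 0.0011) were higher in hippocampus. H2ax (-0.21 ± 0.072, adjusted p = 0.0069) and H2az1 (-0.10 ± 0.040, adjusted p = 0.027) were lower there. H1f0 differed by 0.049 with a 95% interval of -0.0019 to 0.10, H3f3b by 0.054 (-0.013 to 0.12), H2az2 by -0.048 (-0.12 to 0.024) and H1f10 by -0.057 (-0.19 to 0.078), none of them called. Without the high-share libraries the call of H2ax was lost (-0.060, adjusted p = 0.61), as were those of H4c14 (0.17, adjusted p = 0.089) and H1f3 (0.51, adjusted p = 0.055). The call of H1f0 was then gained (0.069, adjusted p = 0.012). In all, 17 of 23 tested members were called, beside 60.9% of all genes. With a term for them in the fit 20 of 23 were called, beside 70.6%. Both counts are over all tested members, with H1f3, H4c11 and H3c4 among the 23.

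**Figure D2:**
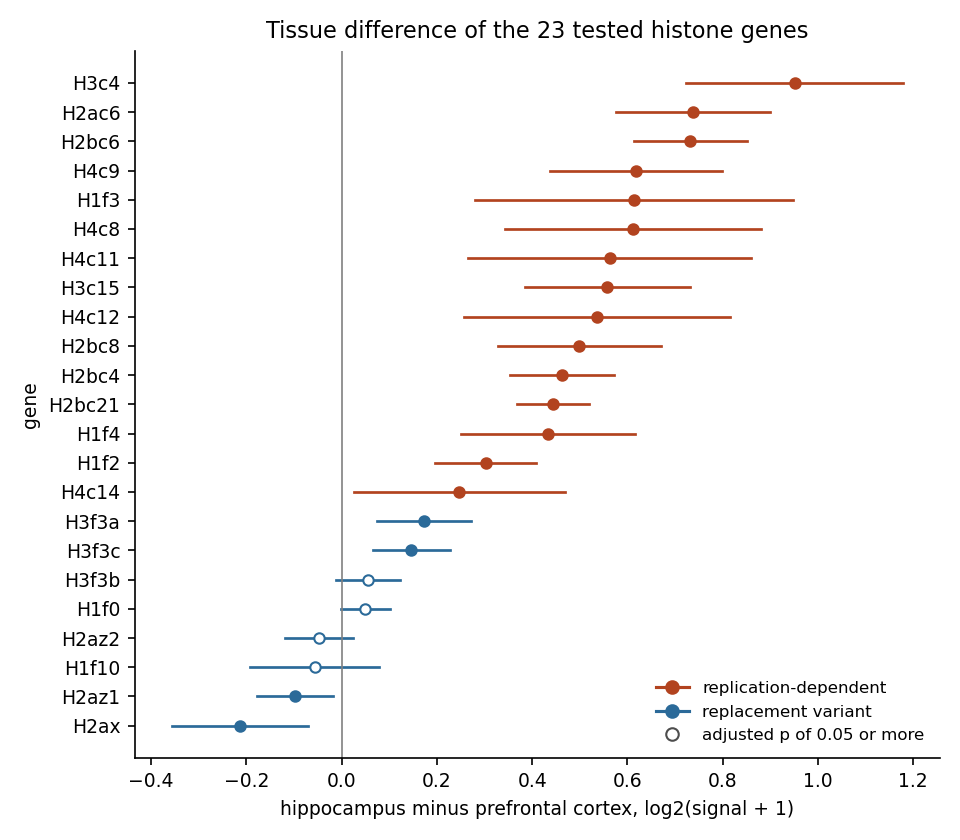
Difference between hippocampus and prefrontal cortex on the log2(signal + 1) scale for the 23 tested histone genes, with 95% intervals; positive values are higher in hippocampus and open points had an adjusted p of 0.05 or more. The replication-dependent genes lie between 0.25 and 0.95, and the replacement variants between -0.21 and 0.17. H3c4, at 0.95, H1f3 and H4c11 were tested only through their hippocampal values.

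Cell makeup differs between the tissues, and in bulk samples fewer cells of a type and less RNA per cell cannot be told apart. Of 24 genes of proliferating cells, 7 were higher and 14 lower in hippocampus, beside 31.8% and 33.3% of all genes. The mitotic genes Ube2c and Aurkb had median signals under 10 in both tissues. The summed signal of the 24 was 2573 to 3180 in hippocampal and 2856 to 3590 in prefrontal libraries. Of 8 neuroblast markers, 1 was higher and 5 lower in hippocampus, beside the same shares of all genes. Summed choroid plexus markers reached 809 to 96866 in hippocampal and 193 to 540.2 in prefrontal libraries, and summed striatal neuron markers 1677 to 3209 and 4359 to 33251. The part of these cells in the tissue differences was not tested.

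The second comparison set PLX against control, averaged over sex and prenatal group, 24 libraries against 24 in each tissue. In both tissues the replication-dependent genes that were called were higher under PLX and the replacement variants that were called were lower, but the 3 replication-dependent genes with the highest signal were not called. H2bc4 gave -0.085 (log2, adjusted p = 0.32) in hippocampus and -0.086 (adjusted p = 0.44) in prefrontal cortex, H1f2 -0.15 (adjusted p = 0.0995) and -0.028 (adjusted p = 0.80), and H2bc21 0.0098 (adjusted p = 0.90) and -0.066 (adjusted p = 0.36). Summed over the class, the replication-dependent signal had a median of 1472.9 in controls and 1457.5 under PLX in hippocampus, and of 1040.8 and 1031.5 in prefrontal cortex, whereas the sum of the replacement variants had medians of 9724.2 and 8370.1, and of 9116.4 and 7961.7. In hippocampus 13 of 23 tested members were called, beside 40.0% of all 19938 genes. Called higher were 7 of 15 replication-dependent genes, beside 20.8% of all genes, and called lower were 6 of 8 replacement variants, beside 19.2%. Of these 15, H1f3 and H4c11 did not pass the filter on low signal in control libraries alone. They reached a signal of 10 in 1 and 2 of 24 controls and in 4 and 6 of 24 PLX libraries. Of the 13 that passed in controls and in PLX libraries alone, 6 were called higher, with a median log2 difference of 0.22. In prefrontal cortex 10 of 20 were called, beside 37.8% of 19841 genes: 5 of 12 replication-dependent genes were higher, beside 19.7%, and 5 of 8 replacement variants were lower, beside 18.1%. The median log2 difference of the replication-dependent genes was 0.23 in hippocampus and 0.25 in prefrontal cortex, that of the variants -0.17 and -0.15, and that of all genes -0.0017 and -0.00024.

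Most of these calls moved with the high-share libraries, of which 12 of 14 and 14 of 16 were controls. The share and the inhibitor thus go together, and their parts in these calls cannot be told apart in this design. With a term for those libraries in the fit, 2 hippocampal members were called, H3c15 and H1f0, beside 0.376% of all genes, and 0 prefrontal members, beside 0.242%. At an unadjusted p under 0.05 were 8 of the 20 prefrontal members, beside 10.9% of all genes. Without those libraries limma called 0 of 23 and 0 of 20, beside 0.0451% and 0.312% of all genes, with 8 and 6 members at an unadjusted p under 0.05, beside 10.7% and 13.5%. The median of the replication-dependent genes was then 0.28 and 0.33, and 14 of 15 and 11 of 12 were above 0. The 15 include H1f3 and H4c11, which did not pass the filter in control libraries alone. The median of the variants was -0.057 and -0.041.

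The H4 gene H4c14 had a smaller PLX difference once the term for high-share libraries was in the fit. In hippocampus it ran from 15.6 to 52.6 in controls (median 32.0) and from 17.6 to 76.1 under PLX (median 54.7). The difference was 0.78 ± 0.14 (log2, SE; adjusted p = 4.7e-04), with overlapping ranges. In the high-share libraries it was 15.6 to 38.6 and in the rest 25.2 to 76.1. With the term, the difference was 0.40 ± 0.11 (adjusted p = 0.078) in hippocampus, and in prefrontal cortex it went from 0.59 ± 0.17 (adjusted p = 0.0056) to 0.046 ± 0.13. H4c12, another H4 gene, behaved alike in hippocampus: 0.77 ± 0.18 (adjusted p = 0.0018) became 0.33 ± 0.16 with the term, and in prefrontal cortex 0.60 ± 0.21 (adjusted p = 0.020) became 0.33 ± 0.24.

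For other replication-dependent genes the difference also kept its sign with the term, larger in some and smaller in others, while the adjusted p passed 0.05. H2bc6 ran from 79.1 to 209.9 in hippocampal controls (median 134) and from 81.7 to 184 under PLX (median 159.8). Its difference was 0.22 ± 0.088 (adjusted p = 0.042), and 0.32 ± 0.096 (adjusted p = 0.097) with the term. The hippocampal call was lost without any 1 of 23 of the 48 libraries, with an adjusted p of at most 0.072, and with edgeR and DESeq2. In prefrontal cortex it was 0.29 ± 0.078 (adjusted p = 0.0043), and 0.35 ± 0.092 (adjusted p = 0.092) with the term. The median of H2bc6 was higher under PLX in each of the 4 combinations of sex and prenatal group, in both tissues. H2bc8, a second H2B gene, gave 0.37 ± 0.11 (adjusted p = 0.0083) and 0.40 ± 0.13 (adjusted p = 0.018), and 0.33 and 0.41 with the term. The linker gene H1f4 gave 0.33 ± 0.13 (adjusted p = 0.034) and 0.38 ± 0.13 (adjusted p = 0.019), and 0.24 and 0.47 with the term. The hippocampal call of H1f4 was lost without any 1 of 9 of the 48 libraries, with an adjusted p of at most 0.075. H1f3 (0.67 ± 0.22, adjusted p = 0.016) and H3c4 (0.45 ± 0.16, adjusted p = 0.026) were called in hippocampus, where each was tested. H1f3 passed the filter there with 5 libraries, 4 of them PLX, so its difference was favoured by the filter.

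The H3 gene H3c15 was called only with the term. It ran from 15.7 to 65.9 in hippocampal controls (median 35.8) and from 18.2 to 60.7 under PLX (median 39.0), a difference of 0.23 ± 0.13 (adjusted p = 0.14). Without the high-share libraries, the medians were 25.9 in 12 controls and 38.5 in 22 PLX libraries. With the term the difference was 0.54 ± 0.11 (adjusted p = 0.024), and without those libraries it was 0.57 (adjusted p = 0.16).

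Among the replacement variants, H1f0 was lower under PLX by the smallest p of the 23 hippocampal members. It ran from 1916 to 2639 in controls (median 2181) and from 1759 to 2229 under PLX (median 1855). The difference was -0.21 ± 0.033 (adjusted p = 2.2e-04), with overlapping ranges. With the term it was -0.12 ± 0.027 (adjusted p = 0.025), and without the high-share libraries -0.12 (adjusted p = 0.18). In prefrontal cortex it went from -0.17 ± 0.039 (adjusted p = 0.0021) to -0.045 ± 0.033 (adjusted p = 0.65) with the term. Its median was lower under PLX in all 4 combinations of sex and prenatal group, in both tissues.

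H3f3b had medians of 4140 in controls and 3647 under PLX in hippocampus (-0.17 ± 0.041, adjusted p = 0.0022) and of 3954 and 3447 in prefrontal cortex (-0.15 ± 0.053, adjusted p = 0.027). With the term these were -0.076 ± 0.037 (adjusted p = 0.32) and -0.069 ± 0.059 (adjusted p = 0.71). H2az1 (-0.21 and -0.22), H2az2 (-0.11 and -0.15) and H3f3c (-0.18 and -0.26) were called in both tissues, and H3f3a in hippocampus (-0.18, adjusted p = 0.022) but not in prefrontal cortex (-0.13, adjusted p = 0.17). The prefrontal call of H2az2 was lost without any 1 of 22 of the 48 libraries, with an adjusted p of at most 0.077. None of these was called with the term. H3f3a in hippocampus was at 0.011 (adjusted p = 0.97) without the high-share libraries, and H2az2 in prefrontal cortex at 0.050 (adjusted p = 0.74) with the term. In hippocampus H3f3a was 1599 to 1760 in the high-share libraries and 699.6 to 1507 in the rest, with no overlap. H2ax (-0.094 and -0.030) and H1f10 (-0.0080 and -0.14) were not called in either tissue. The difference between the tissues in the PLX effect was called in 0 of 23 members and in 0% of all genes by limma, with 0 members at an unadjusted p under 0.05, and by edgeR and DESeq2 in 0.

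**Figure D3:**
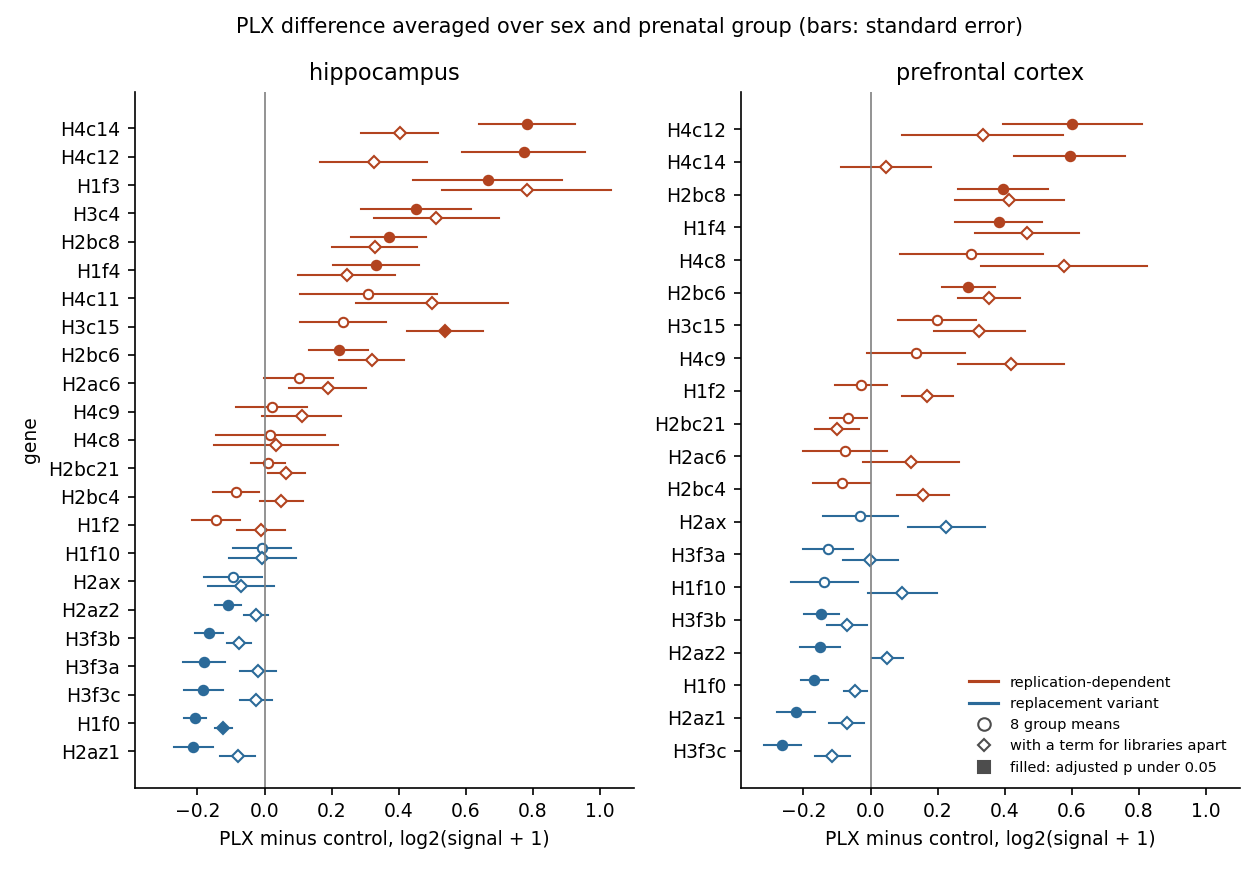
PLX minus control on the log2(signal + 1) scale with standard errors for each tested member, in hippocampus and prefrontal cortex; circles come from the fit of 8 group means, diamonds from the fit with a term for the high-share libraries, and filled symbols had an adjusted p under 0.05. With the term H4c14 moves from 0.78 to 0.40 in hippocampus and from 0.59 to 0.046 in prefrontal cortex, while H2bc6 moves from 0.22 to 0.32 and from 0.29 to 0.35.

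Within single combinations of sex and prenatal group, members were called in 1 of 8 PLX comparisons: saline males in prefrontal cortex, with 6 control and 6 PLX libraries. H1f4, a linker histone gene, ran from 7.04 to 13.2 in the controls (median 9.27) and from 15.04 to 33.5 under PLX (median 25.2), so the groups did not overlap. The difference was 1.28 ± 0.26 (log2, SE; adjusted p = 0.018), the highest in value of the 20 members. H2bc6 ran from 49.8 to 92.1 in the controls (median 56.5) and from 76.8 to 112.8 under PLX (median 103). Control 4, at 92.1, overlapped the PLX group, and the other 5 controls were at or under 59.0. The difference was 0.71 ± 0.16 (adjusted p = 0.032). These 2 of 20 members stand beside 0.338% of all genes called (0.227% higher). H1f4 and H2bc6 overlap in the annotation, so they may share reads and are not counted as independent.

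Of the 12 replication-dependent genes in this comparison 10 were above 0, with a median of 0.66. The count above 0 is no test and was not set beside that of all genes. Of the 12, 7 had an unadjusted p under 0.05, beside 27.8% of all genes. H3c15 (0.70 ± 0.23, adjusted p = 0.081) and H4c14 (0.90 ± 0.33, adjusted p = 0.095) came next and were not called. In 5 of the 6 controls and 1 of the 6 PLX libraries the share was high. The control with a low share, control 6, had the lowest H1f4 of all 96 libraries at 7.04. With the term, which left 0.0403% of all genes called, H1f4 stayed called (1.39 ± 0.28, adjusted p = 0.027) and H2bc6 did not (0.79 ± 0.17, adjusted p = 0.050). Without these libraries, with 1 control library assumed to vary like the other groups, 0.0353% of all genes were called and neither gene was (1.66, adjusted p = 0.24, and 0.80, adjusted p = 0.25). Leaving out control 1, control 5, PLX 2, PLX 4 or PLX 6 left 0 members called, and leaving out control 6 gave 4. With the sample number as a block H1f4 alone stayed called (adjusted p = 0.025, and 0.052 for H2bc6). A fit of the 2 groups alone called 0 members. edgeR called both, and DESeq2 gave neither an adjusted p.

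In hippocampus of saline males the same 2 genes differed in the same direction without being called. H1f4 ran from 7.56 to 19.7 in controls (median 13.6) and from 18.2 to 35.3 under PLX (median 29.2), a difference of 0.93 ± 0.25 (adjusted p = 0.19). H2bc6 ran from 79.1 to 178 and from 133 to 184 (0.50 ± 0.18, adjusted p = 0.19). Here limma called 0 of 23 members, beside 0.0251% of all genes, with 11 members at an unadjusted p under 0.05, beside 20.2% of all genes. Of the replication-dependent genes that passed the filter in controls and in PLX libraries alone, 13 of 13 were above 0, with a median of 0.54. This count of signs is no test, since genes of 1 library are not independent and H1f4 and H2bc6 may share reads. It was not set beside that of all genes.

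In the other 6 PLX comparisons limma called 0 members. In hippocampus these were saline females (5 of 23 at an unadjusted p under 0.05), MIA females (2) and MIA males (5), beside 22.7%, 7.71% and 28.2% of all genes at that p, so the members were near or under the share of all genes. Of all genes 0.0301%, 0.00502% and 0.00502% were called. In prefrontal cortex they were saline females (2 of 20), MIA females (2) and MIA males (5), beside 17.8%, 7.59% and 24.9% of all genes at that p, and 0.0252%, 0.0252% and 0.0202% called. The smallest p-values belonged to H1f0 (-0.28, adjusted p = 0.13) and H3f3b (-0.28, adjusted p = 0.16) in hippocampus of saline females. H4c14 (1.098, adjusted p = 0.099) and H1f0 (-0.23, adjusted p = 0.099) led in hippocampus of MIA males, and H1f0 (-0.17, adjusted p = 0.45) and H1f2 (-0.35, adjusted p = 0.50) in MIA females. In prefrontal cortex the leading pairs were H4c14 (0.76, adjusted p = 0.27) and H1f0 (-0.17, adjusted p = 0.27) in saline females, H2bc21 (-0.25, adjusted p = 0.58) and H1f0 (-0.16, adjusted p = 0.62) in MIA females, and H3f3c (-0.42, adjusted p = 0.14) and H2az1 (-0.28, adjusted p = 0.15) in MIA males. By edgeR 0 members were called in these 6, and by DESeq2 1 each in hippocampus of saline females and of MIA males, H1f0 both times. Leaving out MIA control male 5 gave 4 calls in hippocampus of MIA males.

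The MIA control males hold only 5 libraries, and their values are given in full. In hippocampus H1f4 was 22.96, 26.2, 13.1, 32.1 and 10.1 in libraries 2 to 6, and H2bc6 was 109.6, 196, 111, 108 and 113. Library 3 had a far higher H2bc6 than the other 4, and H1f4 was spread from 10.1 to 32.1. In prefrontal cortex H1f4 was 10.1, 14.5, 16.7, 15.7 and 17.2, and H2bc6 was 69.8, 104, 62.9, 84.2 and 75.1. H1f4 in the MIA PLX males of prefrontal cortex ran from 8.06 to 33.5 (median 20.9) and thus overlapped all 5.

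The difference between the sexes in the PLX effect was called in 0 members in either tissue by limma, edgeR and DESeq2, beside 0% of all genes. It was below 0, a lower PLX effect in females, in 15 of 15 replication-dependent genes in hippocampus and 12 of 12 in prefrontal cortex, with medians of -0.28 and -0.31. Genes of 1 library are not independent, so this count of signs is no test, and it was not set beside that of all genes. The 15 include H1f3 and H4c11, which did not pass the filter in control libraries alone. At an unadjusted p under 0.05 there were 2 of 23 and 3 of 20 members, beside 4.94% and 4.54% of all genes, with H1f4 (-0.59, adjusted p = 0.86, and -0.81, adjusted p = 0.82) and H2bc21 (-0.22 and -0.26) first in both.

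**Figure D4:**
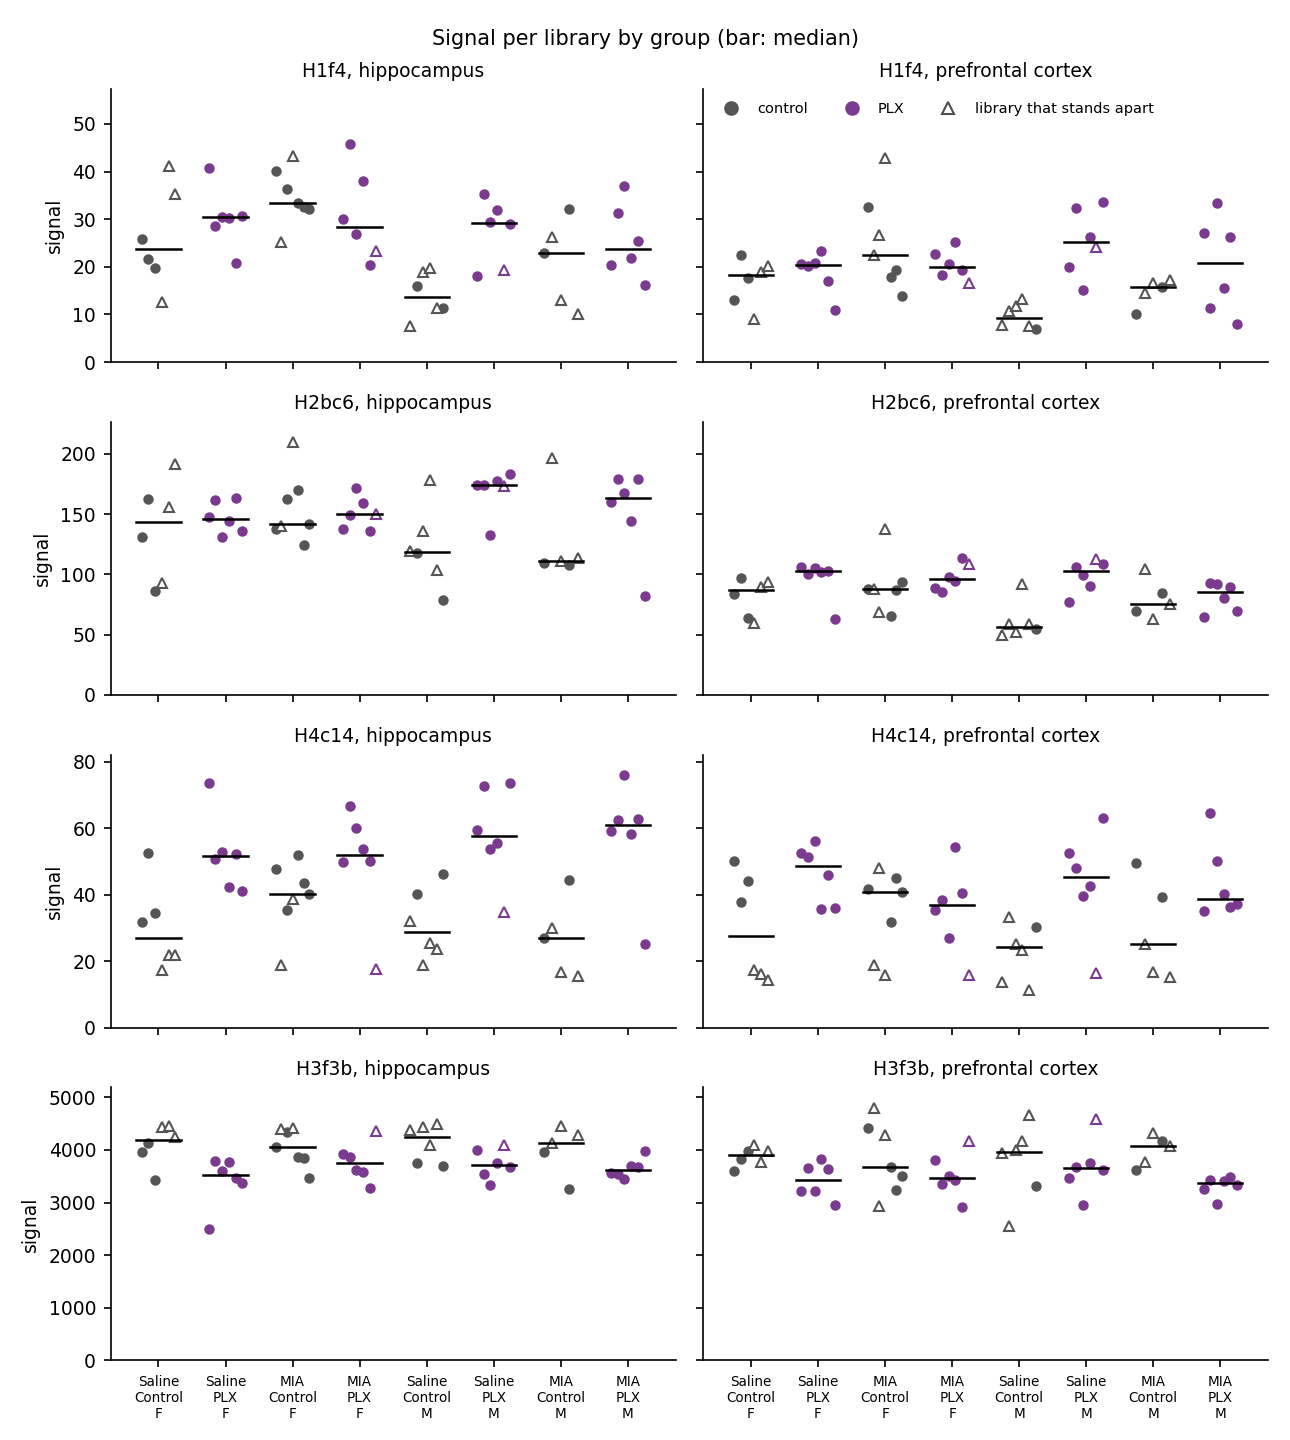
Signal per library of H1f4, H2bc6, H4c14 and H3f3b by group in both tissues, with bars at the medians, grey for control, purple for PLX and open triangles for high-share libraries. In prefrontal cortex of saline males the 6 PLX values of H1f4 (15.04 to 33.5) lie above the 6 control values (7.04 to 13.2), and most open triangles of H4c14 lie low in their groups.

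MIA against saline was called in 0 members by limma in each of the 10 MIA comparisons, averaged or within sex and inhibitor, and by edgeR and DESeq2 in 0. The share of all genes called was 0%, except 0.00502% in hippocampus of control females. Averaged over sex and inhibitor, 0 of 23 hippocampal and 1 of 20 prefrontal members had an unadjusted p under 0.05, beside 4.76% and 5.96% of all genes. The latter was H1f2, a linker histone gene, which ran from 152 to 321 in 24 saline libraries (median 246) and from 195 to 552 in 24 MIA libraries (median 274). The ranges overlapped, and the difference was 0.20 ± 0.077 (adjusted p = 0.78). In hippocampus H3c4 (-0.29) and H4c8 (-0.28) had the smallest p-values, with adjusted p-values near 1. Within groups, counts at an unadjusted p under 0.05 were 0 or 1 member per comparison in hippocampus and 1 to 3 in prefrontal cortex, beside 2.38% to 6.41% and 2.56% to 5.35% of all genes, and limma gave no adjusted p under 0.05. In hippocampus the smallest p-values belonged to H1f4 (0.48) and H4c12 (0.58) in control females, H4c8 (-0.76) and H3f3b (0.15) in PLX females, H4c9 (0.74 ± 0.22) and H1f4 (0.49) in control males, and H3c4 (-0.65) and H4c8 (-0.57) in PLX males. Without saline PLX female 1 the value of H3f3b was 0.066, and without MIA PLX male 6, where H3c4 was at 2.02, that of H3c4 was -0.23. In prefrontal cortex they belonged to H4c9 (0.60) and H1f4 (0.52) in control females, H1f2 (0.41) and H2ax (0.50) in PLX females, H2bc6 (0.38) and H1f4 (0.58) in control males, and H2bc21 (-0.23) and H2bc6 (-0.28) in PLX males.

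The MIA by PLX interaction was called in 0 members and 0% of all genes, in both sexes and both tissues, by limma, edgeR and DESeq2. In males, 2 hippocampal members (H4c9 at -1.06 and H2ac6 at -0.64) and 3 prefrontal members (H2bc6 at -0.66, H2bc21 at -0.44 and H1f4 at -0.99) had an unadjusted p under 0.05, beside 2.13% and 4.02% of all genes, with adjusted p-values near 1. In females there were 0, and the smallest p-values belonged to H4c12 (-0.98) and H3f3b (0.17) in hippocampus and to H4c14 (-0.73) and H2ax (0.45) in prefrontal cortex. The MIA effect differed between the sexes in 0 members, with 0 hippocampal members and 1 prefrontal member at an unadjusted p under 0.05 (beside 4.08% and 2.39% of all genes), H2bc4 (0.38, adjusted p near 1).

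Females and males differed in 0 members by limma, beside 0.246% of all genes in hippocampus and 0.141% in prefrontal cortex. At an unadjusted p under 0.05 were 3 of 23 and 3 of 20 members, all replication-dependent and all higher in females, beside 7.85% and 6.05% of all genes. H1f4 ran from 12.5 to 45.9 in 25 female hippocampal libraries (median 30.5) and from 7.56 to 37.0 in 23 male ones (median 20.4). The difference was 0.51 ± 0.13 (adjusted p = 0.076), DESeq2 called it (0.52, adjusted p = 0.027), and edgeR called 0 members. H1f2, the other linker gene among the 3, gave 0.20 ± 0.072 (adjusted p = 0.41) in hippocampus and 0.23 ± 0.077 (adjusted p = 0.54) in prefrontal cortex. With the term for high-share libraries, H1f2 was called in prefrontal cortex (0.28 ± 0.064, adjusted p = 0.045), beside 0.197% of all genes. H2bc6 (0.20 ± 0.078, adjusted p = 0.70) was next in prefrontal cortex.

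Many of the replication-dependent genes, but not all, were high or low together in single labels, in both tissues. MIA control female 4 had the highest summed signal of the tested genes of this class in both tissues: 2157 in hippocampus, where the other 47 libraries ran up to 1791, and 1643 in prefrontal cortex, where they ran up to 1390.4. It held the highest value of 6 members in hippocampus (H1f2, H2bc21, H2bc6, H3c15, H3c4 and H4c9) and of 5 in prefrontal cortex (H1f2, H1f4, H2ac6, H2bc21 and H2bc6). Its H1f2 was 681 and 552, against 325 to 442 and 269.8 to 370.2 in the other 6 libraries of its groups. The label was among the 3 highest for 9 of 15 tested genes of the class in hippocampus and 9 of 12 in prefrontal cortex. Not every gene of the class was high in it: H4c12 was at 10.4 and 7.46, and H4c14 at 15.8 in prefrontal cortex. Its libraries were high-share libraries in both tissues. Saline control male 6 had the lowest sums, 998 and 673, and was among the 3 lowest for 6 of 15 and 7 of 12 of these genes. Among the 48 labels, 22 hippocampal libraries correlated best with the prefrontal library of their own label over the deviations of all genes, but the labels do not state that these came from 1 animal. With that label as a block, the tissue comparison called 20 members.

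**Figure D5:**
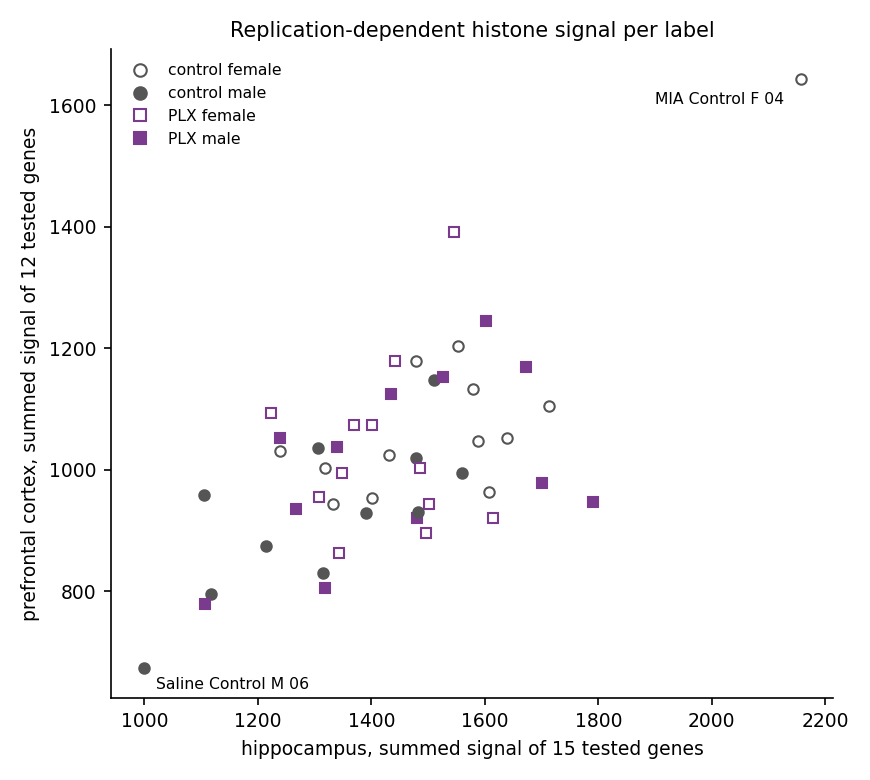
Summed signal of the tested replication-dependent histone genes in hippocampus (15 genes, x axis) against prefrontal cortex (12 genes, y axis) for the 48 labels; circles are control, squares PLX, open symbols female and filled symbols male. MIA control female 4, high-share in both tissues, lies at 2157 and 1643, away from the other labels. Saline control male 6 is the lowest in both.

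Genes that make, finish and deposit histones were counted beside the members. Of 18 tested genes of histone mRNA processing, 9 were higher and 2 lower under PLX in hippocampus, and 9 and 4 in prefrontal cortex. The shares of all genes called were 40.0% in hippocampus (20.8% higher, 19.2% lower) and 37.8% in prefrontal cortex (19.7% higher, 18.1% lower). In hippocampus Slbp, whose protein binds the stem-loop, gave -0.13 ± 0.034 (adjusted p = 0.0031) and Cstf2, a 3′ end cleavage factor, 0.17 ± 0.050 (adjusted p = 0.0059). With the term for high-share libraries 0 of 18 were called in either tissue by limma. Of 24 histone chaperones and exchangers, 7 were higher and 7 lower in hippocampus, and 7 and 9 in prefrontal cortex, beside the same shares. Hira, a chaperone of H3.3, gave -0.17 ± 0.038 (adjusted p = 0.0014) and -0.19 ± 0.040 (adjusted p = 0.0014), and 0 of 24 were called with the term. Of 10 poly(A) addition genes 2 were higher in hippocampus and 4 in prefrontal cortex, beside 20.8% and 19.7% of all genes. The poly(A) polymerase gene Papola led them (0.18 and 0.21), and with the term 0 were called higher.

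Markers of other cells moved with the inhibitor too. Of all genes, 20.8% were called higher and 19.2% lower under PLX in hippocampus, and 19.7% and 18.1% in prefrontal cortex. Of 10 microglial markers, 8 were lower under PLX in hippocampus and 9 in prefrontal cortex. Their summed signal was 8255 to 12467 in control and 7725 to 9439 in PLX hippocampal libraries, so the ranges overlapped and no marker was at 0. With the term 3 and 6 were called, and without the high-share libraries 1 and 6. Of the proliferating-cell genes, 3 were higher and 5 lower of 21 tested in hippocampus, and 1 and 5 of 24 in prefrontal cortex, and 0 with the term. Of 6 nuclear RNAs, 3 were higher in hippocampus and 1 in prefrontal cortex, and 0 with the term. The part of these genes' cells or RNA in the histone results was not tested.

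Histone genes outside the symbol rule were measured as well: H2aw, H2aj, H2bu2, H4f16, Macroh2a1, Macroh2a2 and Cenpa, of which 6 were tested. Between tissues 3 were higher and 1 lower in hippocampus, beside 31.8% and 33.3% of all genes. The 1 lower was Macroh2a2 (-0.60 ± 0.027), a macroH2A variant. Under PLX 0 of 6 were called in prefrontal cortex by limma. In hippocampus 2 were lower, beside 19.2% of all genes: Macroh2a2 (-0.11 ± 0.034, adjusted p = 0.012) and Macroh2a1 (-0.078 ± 0.026, adjusted p = 0.015). With the term these were -0.068 (adjusted p = 0.38) and -0.037 (adjusted p = 0.51), and without the high-share libraries 0 of 6 were called.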

How the data were processed

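Poly(A)-selected RNA was sequenced in 96 libraries with a stranded kit, per the labels' protocols. Reads were trimmed with Trimmomatic and aligned with STAR 2.6.1d to GRCm39 (mm39), per the submitters' processing notes. The counter was not given in the sources used here. Values deposited by the authors are a signal: gene counts divided by 1 factor per library within each tissue. Whole reads were recovered from them, with 100% of values whole within 0.01. Where the factor lies within 1% of 1 (19 libraries), a whole number cannot be told from an unscaled one. edgeR on these reads called 7891 (hippocampus) and 7425 (prefrontal cortex) genes for averaged PLX, 71 for saline males in prefrontal cortex and 13598 between tissues.

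The planned count test assumed unscaled counts, so limma 3.58.1 (R 4.3.3) was run on log2(signal + 1), fitting 8 group means per tissue with a mean-variance trend. The test took genes whose signal reached 10 in 5 or more libraries, and p-values were adjusted by Benjamini-Hochberg over all of them with a threshold of 0.05. Intervals are 95% intervals of the fit. Tissues were compared in 1 fit of 16 groups, without the label as a block. Alternatives were edgeR 4.0.16, DESeq2 1.42.0, TMM scaling, other filters and pseudocounts, and a block. The high-share libraries (those with a high share of reads in ribosomal protein and oxidative phosphorylation genes) were given a term or removed. Each library was left out in turn, or each label in the tissue comparison. The fits were tested on simulated data. Tables and sequences were read with numpy 2.4.6, pandas 2.3.3 and scipy 1.17.1, and plots made with matplotlib 3.10.9. Named in each comparison are the members called, or with 0 called the 2 with the smallest p-values; added by role are H1f0, H1f2, H1f4, H2ax, H2az1, H2az2, H3f3a, H3f3b, H3c15 and the 5 replication-dependent genes with the highest signal, and any others were chosen after their values were seen. The members, lists and tests were chosen with earlier results of these data known.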

Additional observations from a re-analysis of the deposited data

Results flagged for a closer look

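In 33 of 344 sets of 1 histone gene in 1 group (9.59%), the highest or lowest library lay farther from the others than Dixon's 95% limit allows. Chance alone marks about 5% of such sets, which is about 1 in 20, and genes of 1 library are not independent.

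Saline PLX female 1 in hippocampus had 6 of these values. They were a high signal of H2ax (531.65), H2bc4 (649.9) and H4c14 (73.5), and a low one of H2bc21 (185.8), H3f3a (699.6) and H3f3b (2505). MIA control female 4 had 4, all high: H1f2 in hippocampus (681) and prefrontal cortex (552), H3c4 in hippocampus (27.3) and H2bc6 in prefrontal cortex (138).

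MIA PLX female 6 had H4c14 at 17.6 in hippocampus, and H1f2 at 428 and H3f3a at 1545 in prefrontal cortex. Saline control male 4 had H3c4 at 15.7 and H4c8 at 25.6 in hippocampus, and H2bc6 at 92.1 in prefrontal cortex. Saline PLX female 6 had H1f10 at 328, H2ax at 525 and H2bc6 at 63.2 in prefrontal cortex. MIA control male 5 had H1f10 at 387 and H4c12 at 36.3, and MIA PLX male 6 had H2bc6 at 81.7 and H4c14 at 25.2, all in hippocampus.

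The other hippocampal values were H2bc6 at 196 in MIA control male 3, H2ax at 639 in MIA PLX male 2, H4c8 at 6.67 in saline control female 6, H4c11 at 10.4 in saline control male 1, H1f0 at 1991 in saline PLX female 2, H2az1 at 242 in saline PLX male 5 and H2bc6 at 133 in saline PLX male 3. In prefrontal cortex they were H1f2 at 310 in MIA PLX male 3, H3c15 at 19.3 in saline PLX male 3 and H3f3a at 1548 in saline PLX male 5.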

How the results depend on the processing

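The number of histone genes called depended most on the high-share libraries. With a term for them, averaged PLX calls were 2 of 23 in hippocampus and 0 of 20 in prefrontal cortex, and without them 0 and 0, against 13 and 10. Saline males in prefrontal cortex gave 1 call with the term and 0 without these libraries, against 2, and the sex comparison in prefrontal cortex gave 1 with the term, H1f2. H3f3a in hippocampus changed sign without them (0.011), as did H2az2 in prefrontal cortex with the term (0.050) and without them (0.041). DESeq2 gave 1 call each for sex (H1f4), for PLX in MIA males and for PLX in saline females in hippocampus, and 0 for saline males in prefrontal cortex, where it gave no adjusted p for H1f4 and H2bc6. Fitting only the 2 groups compared also gave 0 there. The cause was not tested.

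Between tissues, leaving out 1 label in both tissues at once gave 17 (without saline PLX female 1) to 19 calls. Leaving out 1 library gave 11 to 13 calls for averaged PLX in hippocampus and 9 to 11 in prefrontal cortex. It gave 0 to 4 for saline males in prefrontal cortex, 0 to 4 for MIA males in hippocampus, 0 to 1 for MIA males in prefrontal cortex (1 without MIA control male 2 or 5) and 0 to 1 for sex in hippocampus (1 without MIA control male 5 or saline control female 4). It gave 0 in every other comparison.

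Libraries with the same label in both tissues were not taken as pairs, since not every correlation of their deviations was over 0.1: 38 of 48 were, the lowest was -0.094 and the median 0.21, and 22 of 48 correlated best with their own label, while libraries of other labels had a median of -0.0042. This is a hint of pairing from the data, which the labels do not state. As a block, the label had a consensus correlation of 0.38, which the main p-values between tissues leave out. With the sample number as a replicate block within a tissue, and the label as a block between tissues, averaged PLX gave 12 calls in hippocampus and 10 in prefrontal cortex, the tissue comparison 20, and saline males in prefrontal cortex 1. At these depths genes under a signal of 10 were mostly not tested.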
